A study of Mus musculus with 2 samples.

Results

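The protease-activated receptors are a family of G protein-coupled receptors encoded in the mouse by F2r, F2rl1, F2rl2 and F2rl3. The members were taken by gene symbol, 4 genes in all, and 3 of them were measured among 22180 named genes. F2r, F2rl2 and F2rl3 each had 1 probe set, so no choice between probe sets entered their values. F2rl1 was not analysed here, since its symbol was attached to none of the probe sets used.

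Nasal mucosa of C57BL/6 mice aged 4 to 6 weeks was compared at day 3 between animals given papain and animals given phosphate-buffered saline (PBS). Papain is a cysteine protease of the papaya plant that is used as a model airway allergen, and PBS is its vehicle. RNA pooled from 4 samples, by the submitters' account, was read on 1 Affymetrix Mouse Gene 2.0 ST array for each treatment. It is not stated whether the 4 were counted per array. The differences below therefore have no replicate check, test or p-value, and precision is limited by there being 1 array on each side.

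A protease-activated receptor carries its own ligand. A protease cuts the extracellular amino terminus, and the new end folds back and can switch on the same molecule. Signalling in the family runs through G proteins to phospholipase C, and also through arrestins. F2r encodes the main thrombin receptor of endothelium, fibroblasts and smooth muscle. F2rl3 encodes the receptor that transmits thrombin signals in mouse platelets, and F2rl2 encodes a thrombin receptor that serves there as its cofactor. F2rl1 encodes the receptor for trypsin-like proteases and tryptase in epithelium and sensory nerve. The comparison addresses whether the transcripts of these sensors, and of the proteases and inhibitors that act on them, differed between nasal mucosa given a protease and nasal mucosa given its vehicle.

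The promoter windows of the measured members are shown because they are the regulatory sequence next to each transcript and differ in base composition and in motifs. Each window is the 250 bases before the annotated start from RefSeq (GRCm38.p6), written 5′ to 3′ on the gene's strand. The F2r window is chr13:95618467-95618716 on the minus strand, the F2rl2 window is chr13:95696670-95696919 on the plus strand, and the F2rl3 window is chr8:72761409-72761658 on the plus strand. Capitals mark matches to any of 4 motifs, each searched on both strands, and none of the matches overlapped. The motif of AP-1, the factor of FOS and JUN proteins, was searched as TGANTCA. The motif of the zinc finger factors of the GATA family was searched as AGATAA. The GC box, which SP1 and its relatives bind, was searched as GGGCGG. The motif of the ETS family was searched as CAGGAAGT.
F2r: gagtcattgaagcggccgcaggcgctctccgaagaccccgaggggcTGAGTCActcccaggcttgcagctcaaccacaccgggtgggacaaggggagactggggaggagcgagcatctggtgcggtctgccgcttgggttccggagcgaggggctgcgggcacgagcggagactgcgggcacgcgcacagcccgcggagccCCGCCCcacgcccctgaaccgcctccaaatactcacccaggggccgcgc
F2rl2: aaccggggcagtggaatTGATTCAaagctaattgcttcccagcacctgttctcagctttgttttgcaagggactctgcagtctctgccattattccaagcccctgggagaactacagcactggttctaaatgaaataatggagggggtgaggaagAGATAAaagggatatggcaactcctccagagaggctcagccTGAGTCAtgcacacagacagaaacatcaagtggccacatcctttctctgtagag
F2rl3: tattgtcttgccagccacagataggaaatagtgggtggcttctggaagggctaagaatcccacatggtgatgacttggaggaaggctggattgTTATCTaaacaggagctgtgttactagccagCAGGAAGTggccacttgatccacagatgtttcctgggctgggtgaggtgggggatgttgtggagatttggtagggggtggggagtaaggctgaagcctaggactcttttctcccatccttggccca

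The F2r window was rich in G and C and the other windows were not. It was 70.8% G and C with 24 CpG dinucleotides, where the median over 27025 mouse genes was 52% and 6. At least 24 CpG were held by 11.7% of those windows. The F2rl2 window was 48.4% G and C with 1 CpG, and the F2rl3 window was 52% with 0 CpG, which 8.26% of all windows share. The F2r window held 1 AP-1 match and 1 GC box, the F2rl2 window 2 AP-1 matches and 1 GATA match, and the F2rl3 window 1 GATA and 1 ETS match. The AP-1 match of F2r began 204 bases before the start and its GC box 49 bases before it, while those of F2rl2 began 233 and 54 bases before the start. An AP-1 match stood in 6.87% of all windows, a GC box in 32.9%, a GATA match in 10.3% and an ETS match in 2.73%. A match describes letters and does not show binding.

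Among measured genes, the median log2 ratio of papain over PBS was -0.01 for 1094 genes with an AP-1 match and -0.04 for those without. It was -0.07 with a GC box and -0.01 without. For GATA it was -0.03 with and -0.04 without a match, and for ETS -0.01 and -0.04.

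F2r, the thrombin receptor gene, gave a clear signal on both arrays and read slightly less after papain. Its log2 signal was 9.81 after papain and 10.04 after PBS, a log2 ratio of -0.23, or a PBS over papain ratio of 1.17. Both signals were far above the background level, taken as the median over 34 genes of liver, testis and other unrelated tissues. That level was 5.22 on the papain array and 5.06 on the PBS array. They also lay above 6.31, the 95 percentile of those genes over both arrays. The difference was smaller than 0.32, the SD of the log2 ratio between probe sets of 1 gene, taken over 1082 genes with several. A difference of this size or larger, in either direction, was read for 46.3% of all named genes. Of 11691 named genes at or above the median signal of 6.29 on their brighter array, as F2r was, 64.1% had ratios below 0. The median ratio of these genes was -0.10. In a bulk specimen, fewer cells that carry a receptor and less transcript per cell cannot be told apart.

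F2rl2, the platelet cofactor receptor gene, read 5.54 after papain and 5.33 after PBS, a log2 ratio of 0.20. F2rl3, the platelet thrombin receptor gene, read 5.56 after papain and 5.17 after PBS, a log2 ratio of 0.39, or 1.31-fold. Both genes read higher after papain, but all 4 signals lay between the background level and 6.31, where genes of other tissues also read. In units of the probe set SD of 0.32, the F2rl2 ratio was 0.64 and the F2rl3 ratio 1.22. F2rl3 was 0.11 above background in the PBS array and 0.34 in the papain array, so the size of its fold is uncertain.

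The genes of other tissues themselves had a median log2 ratio of 0.18, from -0.43 to 0.81, with 24 of 34 above 0. The F2rl2 ratio had 17 of these 34 genes at or above it, and the F2rl3 ratio had 8. Both receptor ratios lay inside the range of these genes. Among all named genes, 51.8% were at least as far apart as F2rl2 and 23.7% at least as far apart as F2rl3.

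None of the 3 measured receptors was 2-fold apart, against 2.56% of all named genes, of which 1.83% were higher and 0.73% lower in the papain array. None was 1.5-fold apart either, against 9.72% of all named genes, 5.38% higher and 4.34% lower. With 3 genes, a count of 0 lies near this background and is no result about the family. The signals of different probe sets are not on 1 scale, so the receptors are not ranked by level.

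**Figure D1:**
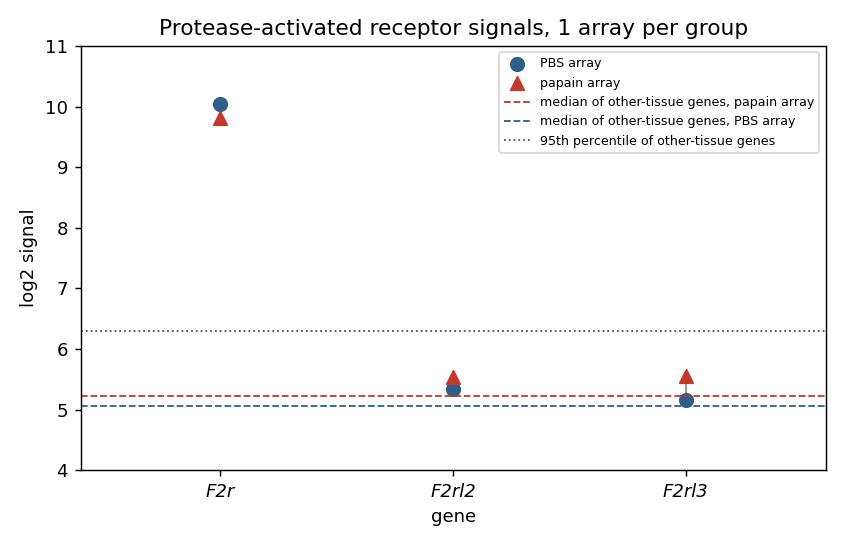
Log2 signal of F2r, F2rl2 and F2rl3 after papain (triangles) and after PBS (circles), with dashed lines at the median of 34 genes of other tissues on each array and a dotted line at their 95 percentile, 6.31. F2r read 9.81 and 10.04, while F2rl2 and F2rl3 read between 5.17 and 5.56, under the dotted line.

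**Figure D2:**
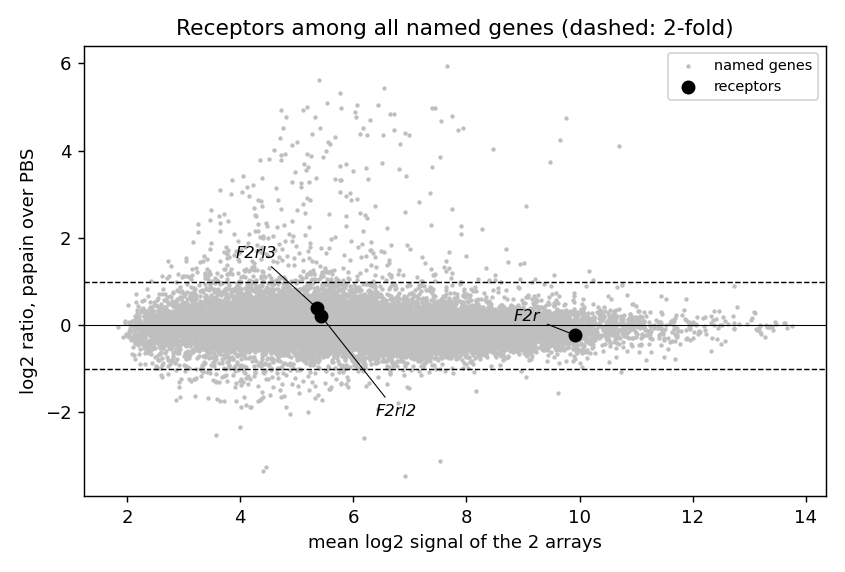
Log2 ratio of papain over PBS against the mean log2 signal of the 2 arrays for 22180 named genes (grey) and the 3 measured receptors (black), with dashed lines at 2-fold. The receptors lie at -0.23, 0.20 and 0.39, within the bulk of genes.

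F2r, F2rl1 and F2rl2 lie close together in the order of the RefSeq gene table (GRCm38.p6), and F2rl2 lies within the span of Iqgap2, a scaffold protein gene on the opposite strand. Iqgap2 read 10.03 after papain and 10.08 after PBS, a log2 ratio of -0.06. On the other side of the cluster S100z, a calcium-binding protein gene that stands next to F2rl1, read 11.35 after papain and 7.62 after PBS, which is 13.3-fold. The fold of S100z was not shared by F2r, the nearest measured receptor gene, at -0.23. Crhbp, which encodes the corticotropin-releasing hormone binding protein, read 5.91 against 5.46, a log2 ratio of 0.46. Beside F2rl3, Sin3b, a transcriptional corepressor gene, had -0.24 and Nwd1 had -0.26. Mir28b, whose signals of 4.15 and 3.81 were under background, is the last measured gene among the 3 on each side of a receptor.

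The genes that feed into or out of the receptors were described by lists of proteases, inhibitors, transducers and targets, with 119 of 127 genes measured. None of the 119 was 2-fold apart, and their median log2 ratio was -0.05, against -0.03 over all named genes. At 1.5-fold, 7 were higher and 10 lower in the papain array, which is 14.3% against 9.72% of all named genes. Here and below, above background means above the median of the 34 genes of other tissues. On both arrays 13 of those 34 genes passed it, so a gene above background may still read among genes of other tissues. Among the 85 pathway genes above background on both arrays, 3 were 1.5-fold higher and 8 were 1.5-fold lower. Over the 15171 named genes above background, 409 were higher (2.7%) and 533 lower (3.51%), 6.21% together. Lower readings outnumbered higher ones in both sets, and by more among the pathway genes, whose share past 1.5-fold was also larger. With 1 array per group this difference has no test, and nothing particular to the pathway is read from the split. Of the 11 pathway genes above background and past 1.5-fold, Habp2 read under the 95 percentile of the genes of other tissues on both arrays. F10 did so on the PBS array and Trpv4 on the papain array, while the rest lay above it on both.

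Thrombin and its activation system come first among the activators. F2, which encodes prothrombin, read 4.73 and 5.08, with the papain signal under background. Tissue factor, the trigger of coagulation encoded by F3, read 11.13 after papain and 11.44 after PBS, a log2 ratio of -0.31. F10, whose product is the protease that makes thrombin, read 6.57 against 5.91, or 0.66. Habp2, a plasma serine protease gene, had 0.59, and Plau, which encodes urokinase, had -0.47. Of the 13 genes in this list 5 had ratios above 0 and 8 below, with a median of -0.06.

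Among serine proteases of epithelium, the 4 genes with the largest ratios in either direction read lower after papain. Tmprss13 read 6.62 after papain and 7.32 after PBS, a log2 ratio of -0.69. Prss8, which encodes prostasin, had -0.55, Prss22, a tryptase gene of epithelium, -0.51, and Tmprss11d, the airway trypsin-like protease that can cut the F2rl1 product, -0.50. Tmprss4 went the other way at 0.37, and St14, which encodes matriptase, had -0.03. All 11 members were above background, 5 with ratios above 0 and 6 below, and the median was -0.03.

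The kallikrein-related peptidases, secreted serine proteases of epithelia and glands, differed in both directions. Klk13 had a log2 ratio of -0.48, Klk14, another protease able to activate the F2rl1 product, -0.41, Klk10 -0.32 and Klk8 -0.30. Klk1, the tissue kallikrein, read 12.98 and 12.94. Over 11 members the median was 0.04, with 6 above 0. Among the 9 above background it was -0.13.

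The classical activators from pancreas, mast cells and neutrophils were hardly measurable. Of 9 trypsins, tryptases and chymases, Tpsb2, a mast cell tryptase gene, was above background on both arrays, at 5.43 and 5.49. Of 6 proteases of neutrophils and lymphocytes, Elane, which encodes neutrophil elastase, was above it, at 5.62 and 5.68. The medians of these lists, 0.19 and 0.10, rest on dim genes and on trypsin genes that share sequence.

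Proteases of other classes differed in both directions. Ctss, which encodes the lysosomal cysteine protease cathepsin S, read 9.79 after papain and 9.13 after PBS, a log2 ratio of 0.65. Mmp9 and Mmp2, gelatinase genes, had -0.81 and -0.64, and Mmp12, a macrophage elastase gene, had 0.46. Ctsb, Ctsl and Lgmn, further lysosomal cysteine proteases, had -0.07, -0.11 and -0.20. The 10 measured genes had 5 ratios on each side of 0, with a median of 0.00.

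Inhibitors of these proteases had ratios from -0.31 to 0.55. Slpi, a secreted inhibitor of leukocyte serine proteases, read 6.62 after papain and 6.07 after PBS, a log2 ratio of 0.55. Spint1, an inhibitor of matriptase, had -0.31, Tfpi2 0.24 and A2m, the broad plasma inhibitor, -0.22. Tfpi2 and A2m read under the 95 percentile of the genes of other tissues on both arrays. The 11 measured genes had a median of 0.08, and the 8 above background had -0.07.

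Transducers, which the receptors share with many others, had ratios in both directions. Of 22 genes, all above background, 17 were below 0 (77.3%) and 5 above, with a median of -0.16. Of 15171 named genes above background on both arrays, 59.5% were below 0, with a median of -0.07. Of 11691 named genes whose brighter array reached a floor of 6.29, the median signal, 64.1% were below 0, with a median of -0.10. That floor was reached by 21 of the 22 transducers. Grk3, a kinase that desensitises such receptors, had -0.66, as did Gna11, a G protein subunit that drives phospholipase C, at 8.60 against 9.26. Arrb1, an arrestin gene, read 7.35 after papain and 7.95 after PBS, a log2 ratio of -0.60, while its relative Arrb2 had 0.49. Gnai1, an inhibitory subunit, had -0.56. Gnaq, Gna12 and Gna13, G protein subunit genes through which F2r signals, had -0.15, -0.11 and -0.27.

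Genes that receptor activation is known to induce showed no common direction. Of 17, 9 had ratios above 0 and 8 below, with a median of 0.00. Among the 14 above background, 6 were above 0 and 8 below, with a median of -0.06. The 9 whose brighter array reached the floor had a median of -0.23. Cxcl5, a neutrophil attractant, had -0.61, Il33 -0.54, Il1b 0.51 and Cxcl2, another neutrophil attractant, 0.49. Cxcl2 read under the 95 percentile of the genes of other tissues on both arrays. Ccn1 and Ccn2, matrix genes induced by thrombin, had -0.29 and -0.42.

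Of 9 sensory genes Trpv4, a cation channel gene sensitised by the F2rl1 product, and Tacr1, the substance P receptor gene, were above background. Trpv4 read 6.10 after papain and 7.09 after PBS, a log2 ratio of -0.99, just inside 2-fold. Tacr1 had -0.26. Trpv1, Trpa1 and Tac1, genes of the nociceptors in which these receptors act, read under background on both arrays.

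**Figure D3:**
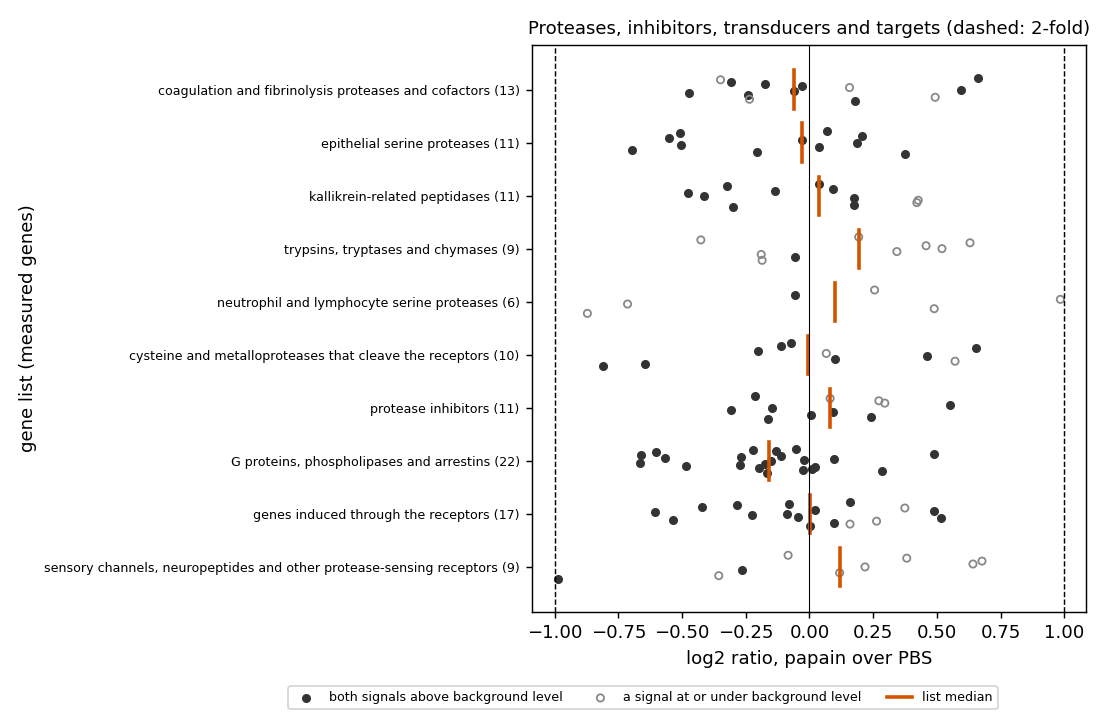
Log2 ratio of papain over PBS for each of 119 genes in 10 lists, with filled points where both signals were above background, open points otherwise, orange bars at list medians and dashed lines at 2-fold. No point lies past 2-fold, and the medians run from -0.16 to 0.19.

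Markers of nasal mucosa gave clear signals. Epcam and Cdh1, epithelial adhesion genes, read between 10.11 and 10.44, and Omp, the marker of olfactory neurons, read 9.87 and 9.94. Markers of cells that carry F2r went in different directions beside its ratio of -0.23. Each of the 7 fibroblast markers was below 0, at a median of -0.38 and a log2 summed signal of 13.58 after papain and 14.11 after PBS. Of 8 endothelial markers, 7 were below 0, with a median of -0.19, summed signals of 9.69 and 9.88, and Pecam1 at -0.18. All 6 smooth muscle and pericyte markers were above 0, with a median of 0.36 and summed signals of 12.31 and 11.97. The part of these cells in the F2r value was not tested. A summed signal, here and below, is weighted to the brightest probe sets of its list and is not a level of the cell type.

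Platelet and megakaryocyte markers stand beside F2rl2 and F2rl3. Of 8 measured, 4 were above 0 and 4 below, with a median of -0.02 and log2 summed signals of 9.68 and 9.58. Pf4, the platelet chemokine gene, read 5.69 and 5.76, under the 95 percentile of the genes of other tissues. Vomeronasal neuron markers read higher after papain for all 8 genes, with a median of 1.93, 4 genes past 2-fold from PBS signals under background, and log2 summed signals of 11.87 and 11.26. Among nasal gland genes, the secreted protein genes Bpifb9b and Bpifb9a were 26.8-fold and 18.8-fold higher, and the 6 genes of that list had a median of 0.33. Single markers past 2-fold elsewhere were Myh11, a smooth muscle myosin gene, at 1.01 and Cxcr2, a neutrophil chemokine receptor gene, at 1.26. The 7 neutrophil markers as a list had a median of 0.09, with 5 above 0 and 2 below. The part of these differences in any receptor value was not tested.

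**Figure D4:**
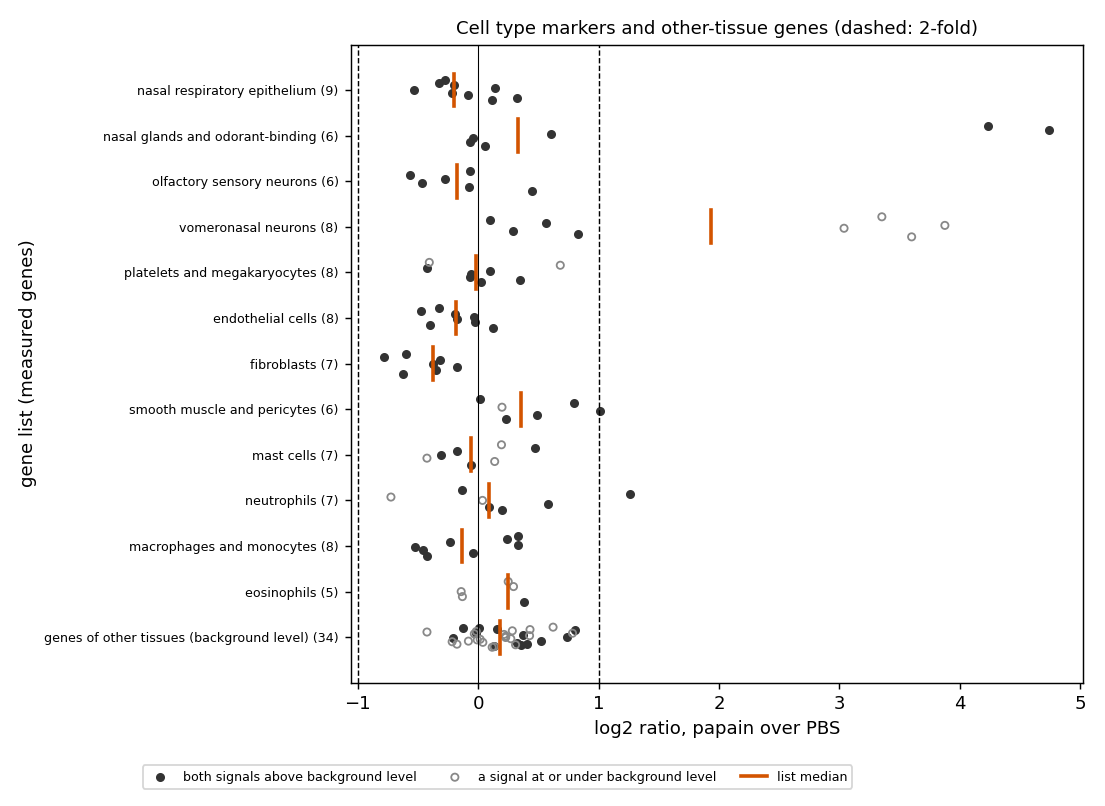
Log2 ratio of papain over PBS for markers of 12 cell types and for 34 genes of other tissues, drawn with filled points where both signals were above background, open points otherwise and orange bars at medians. Fibroblast markers lie below 0, smooth muscle markers above 0, platelet markers around 0, vomeronasal markers reach 3.88 and nasal gland markers reach 4.74.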

How the data were processed

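Total RNA was labelled as biotinylated cDNA and hybridised to 2 arrays, per the labels' protocols. The authors deposited 1 log2 signal per transcript cluster and array, the scale being inferred from the range of values. The submitters' processing notes list Transcriptome Analysis Console 4.0. How background was corrected, probes summarised and arrays normalised is not given in the sources used here. If the arrays were equalised, a difference in total RNA is not visible, and ratios are relative to most other genes.

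Of 41345 clusters, 23521 had 1 gene symbol, 1814 several and 16010 none, and those with 1 were named. The gene IDs of 23328 were found in the RefSeq table. The brightest probe set per gene was used. The genes named were the receptors, the 3 genes on each side, Omp, Cdh1, Epcam, Pecam1, Pf4 and, per pathway list, those past 2-fold and the 4 largest ratios above background. Tmprss4, St14, Klk1, Klk11, Ctsb, Ctsl, Lgmn, Arrb2, Gnaq, Gna12, Gna13, Ccn1, Ccn2, F2, Gzma, Trpv1, Trpa1, Tac1, Bpifb9a, Bpifb9b, Myh11 and Cxcr2 were named after their values were seen. Members and lists were chosen with earlier results of these data known. Promoter windows matched 3 receptors, 1 window per gene, the first listed. Counting steps were tested on simulated data. Alternatives were quantile normalization, median centring, loess with a span of 0.3, averaged probe sets, floors and thresholds of 1.5-fold and 3-fold. Python 3.11.15, numpy 2.4.6, pandas 2.3.3, statsmodels 0.14.6 and matplotlib 3.10.9 were used.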

Additional observations from a re-analysis of the deposited data

How the results depend on the processing

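The log2 ratios of the receptors kept their sign under quantile normalization and loess correction. Centring on the median moved every ratio by the same 0.016, too little to turn a sign here. Averaging of probe sets could not change these genes, which have 1 probe set each. F2r ran from -0.23 to -0.18, F2rl2 from 0.13 to 0.22 and F2rl3 from 0.31 to 0.41. No receptor was past 1.5-fold, 2-fold or 3-fold as deposited, or past 2-fold under these alternatives. The count of pathway genes 2-fold apart was 0 as deposited and 1 with the median ratio set to 0, where Gzma, under background in both arrays, passed at a deposited log2 ratio of 0.98. It was 17 at a 1.5-fold threshold. The share of all named genes past 2-fold was 2.56%, and 1.98% or 1.84% with a floor at the median or the 75 percentile.

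Of 48 recomputed list medians, 46 moved by less than the probe set SD of 0.32, and 8, from 6 of the 10 lists, changed sign. That SD belongs to 1 probe set and is larger than every deposited list median in size. The 46 therefore do not show that the medians are stable. A gene counted as at or above the floor when its brighter array reached it. The 2 sensory genes kept this way had a median of -0.63 and the 5 kallikreins -0.32. Trpv4 passed only through its PBS signal and Klk11 only through its papain signal. The floor is therefore tied to the direction of such ratios, and these medians are no check on the lists. The dim signals of F2rl2 and F2rl3 limit what their ratios measure. No paired analysis was possible because each group holds 1 array.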
